A study of Mus musculus with 4 samples.

Results

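The mRNAs described here come from 10 genes that mark or maintain the stem and progenitor cells of the male germ line: Lin28a, Sall4, Zbtb16, Foxo1, Etv5, Id4, Kit, Gfra1, Ret and Uchl1. They were chosen by gene symbol, and all 10 were found once each among the 50600 gene models of the deposited files. Their RNA was measured by RNA immunoprecipitation (RIP) from testes of 8-week-old C57BL/6 mice, a method that collects a protein on antibody-coated beads and sequences the RNA that comes with it. There were 2 libraries made with an antibody to LARP7 and 2 made with non-specific IgG, the measure of RNA that sticks to beads and antibody without the target. All 4 libraries came from mice of the same strain and age, with no mutation or treatment named, and the series text calls the 2 libraries of each antibody biological replicates. Whether they came from separate animals is not given in the sources used here, so the p-values rest on library-to-library spread alone.

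Spermatogonial stem cells sit at the base of the seminiferous tubule, where they either renew themselves or give rise to progenitors and then to differentiating spermatogonia. Renewal is known to depend on GDNF, a ligand from somatic cells that acts through the co-receptor GFRA1 and the kinase RET, and on nuclear factors such as PLZF (the product of Zbtb16), SALL4, ETV5, ID4 and FOXO1. Differentiating cells carry the receptor KIT, whose ligand is made by Sertoli cells. LARP7 is a La-related RNA-binding protein known for holding 7SK RNA. In an adult testis spermatogonia are a small share of the cells, and meiotic and post-meiotic germ cells make up most of the tissue.

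The LARP7 libraries held 6918040 and 6502682 estimated counts and the IgG libraries 6994514 and 4411271. Inserts of 15 to 300 nt were selected, so an mRNA is seen here only as short fragments. Rn7sk, the 7SK RNA, was higher with the LARP7 antibody (log2 fold change 4.53 ± 1.07 SE, edgeR adjusted p = 0.0167). Protein-coding genes took 14.9% and 20.4% of the counts in the LARP7 libraries, against 42.3% and 38.3% in the IgG libraries. The sign of many mRNA values depended on the scaling, so values are given with TMM scaling (trimmed mean of M-values, which sets the bulk of genes to no average difference) and with library totals. The LARP7 libraries had TMM factors of 0.558 and 0.673, against 1.85 and 1.44 in the IgG libraries. Over all 12234 genes tested, TMM scaling gave a median log2 fold change of -0.049 and library totals one of -1.47.

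The 10 mRNAs were rare. Their summed counts were 112.36 and 213.39 in the LARP7 libraries, against 243.49 and 114.09 in the IgG libraries. As CPM, the usual unit of counts scaled to library size, these sums were 16.2 and 32.8 with LARP7, against 34.8 and 25.9 with IgG, and the groups overlapped. In CPM of protein-coding counts they were 109 and 161 with LARP7, against 82.3 and 67.6 with IgG, and both LARP7 libraries were above both IgG libraries. The ratio of the LARP7 mean to the IgG mean was 0.809 on the first basis and 1.799 on the second. In TMM-scaled CPM the sum averaged 39.1 ± 13.98 in LARP7 libraries and 18.5 ± 0.687 in IgG libraries (SD, n = 2 each). An exact two-sided permutation test of 2 libraries against 2 cannot give a p below 0.333, so none was run on these sums. The sums compare RNA recovered with the LARP7 antibody and with IgG, and do not measure the number of spermatogonia or their RNA per cell.

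With TMM scaling, 3 of the 8 mRNAs with enough counts to be tested were higher in the LARP7 libraries: Lin28a, Zbtb16 and Sall4. Sall4 passed the filter on low counts through its LARP7 libraries alone and so had to differ. Of the 6 mRNAs that reached the filter's minimum of 1.49 CPM in at least 1 library of each antibody, 2 were higher, beside 15.9% of the 9913 genes that did so. Over all genes tested, 14.5% were called higher and 9.69% lower, by edgeR's quasi-likelihood test at an adjusted p of 0.05. None of the 8 was called lower by edgeR or by DESeq2, and 0 of the 8 were lower at an unadjusted edgeR p of 0.05. Their median log2 fold change was 0.98, with 6 above 0 and 2 below, beside -0.049 for all genes and -0.25 for the 9932 protein-coding genes tested. With library totals the count turned to 0 higher and 1 lower (Uchl1), where 3.95% of all genes were called higher and 47.1% lower. On that scaling 0 of the 8 were higher at an unadjusted edgeR p of 0.05, while the median of the 8 was -0.44, beside -1.47 for all genes. TMM factors taken from protein-coding genes alone gave 4 higher and 0 lower, with Foxo1 added, where 15.9% of all genes were higher and 6.71% lower. DESeq2 called 1 (Zbtb16), where 1433 of the 26161 genes fitted were higher and 653 lower. It gave no adjusted p for Etv5, so Etv5 could not be called there.

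**Figure D1:**
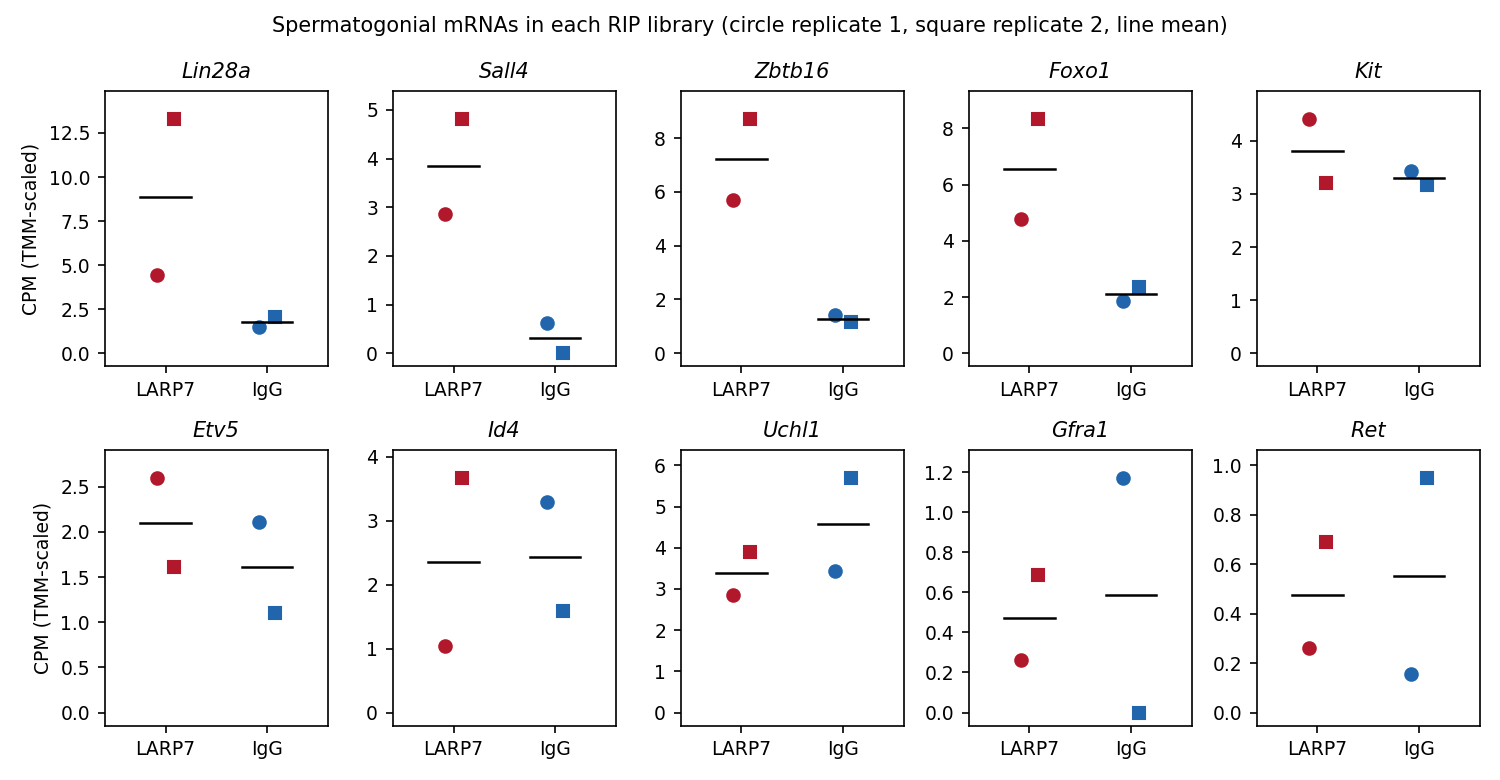
TMM-scaled CPM (y axis, linear, a separate range in each panel) of the 10 spermatogonial mRNAs in the 2 LARP7 and 2 IgG libraries. Circles are replicate 1, squares replicate 2 and lines group means of 2 libraries. Lin28a, Sall4, Zbtb16 and Foxo1 have both LARP7 points above both IgG points, and the other 6 panels overlap.

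Without regard to any test, both LARP7 libraries lay above both IgG libraries for 4 of the 8 tested mRNAs in TMM-scaled CPM (Lin28a, Sall4, Zbtb16 and Foxo1), beside 32.9% of all genes tested. In 0 of the 8 were both LARP7 libraries below both IgG libraries, as they were for 35.5% of all genes. In CPM of library totals, 2 lay above (Sall4 and Zbtb16) and 3 below (Kit, Etv5 and Uchl1), beside 9.7% and 63.9% of all genes. Sall4 passed the filter through its LARP7 libraries alone and Etv5 through its IgG libraries alone. The filter thus fixed their order in CPM of library totals, and that of Sall4 with these TMM factors too. Over all 12234 genes, 209 passed through LARP7 libraries alone and 2112 through IgG libraries alone.

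Lin28a encodes a cytoplasmic RNA-binding protein known to block the maturation of let-7 microRNAs, and in the testis it marks undifferentiated spermatogonia. The gene (ENSMUSG00000050966.9, chr4:134003330-134019196, mm10) had 17 and 58 counts in the LARP7 libraries, against 19 and 13 in the IgG libraries. In TMM-scaled CPM this was 4.42 and 13.3 with LARP7, against 1.48 and 2.06 with IgG. The groups did not overlap, and LARP7 replicate 2 was well above LARP7 replicate 1. The log2 fold change was 2.34 ± 0.64 (SE, edgeR adjusted p = 0.0260), a 5.08-fold difference. In CPM of library totals the values were 2.46 and 8.92 with LARP7, against 2.72 and 2.95 with IgG, which overlap, and the log2 fold change was 1.00 (edgeR adjusted p = 0.242). Without LARP7 replicate 2 the TMM value was 1.33 (edgeR adjusted p = 0.463), and DESeq2 gave an adjusted p of 0.0501. Over the 12 alternatives the adjusted p ranged from 0.00445 to 0.463.

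Sall4 encodes a zinc finger transcription factor of undifferentiated spermatogonia. The gene (ENSMUSG00000027547.17, chr2:168748332-168767201) had 11 and 21 counts with LARP7, against 8 and 0 with IgG, the fewest counts of the 3 mRNAs called. In TMM-scaled CPM it stood at 2.86 and 4.82 with LARP7, against 0.625 and 0 with IgG, and a count of 0 in IgG replicate 2 allows up to 0.475 CPM (3 counts, counting error only). The groups did not overlap on either scaling. The log2 fold change was 3.31 ± 1.02 (SE, edgeR adjusted p = 0.0368). Sall4 passed the filter on low counts only through its LARP7 libraries, so it could enter the test only as a gene that is higher there. With library totals the log2 fold change was 1.88 (edgeR adjusted p = 0.104). The call was also lost without LARP7 replicate 1 (adjusted p = 0.104) and without LARP7 replicate 2 (0.406), and the range over the 12 alternatives was 0.00103 to 0.406.

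Zbtb16 encodes PLZF, a zinc finger repressor needed to keep the stem cell pool. The gene (ENSMUSG00000066687.5, chr9:48651797-48836225) had 22 and 38.02 counts with LARP7, against 18.29 and 7.24 with IgG. In TMM-scaled CPM the values were 5.72 and 8.73 with LARP7, against 1.43 and 1.15 with IgG. The groups did not overlap, and among the 3 mRNAs called the ratio between the 2 LARP7 libraries was smallest here. The log2 fold change was 2.49 ± 0.59 (SE, edgeR adjusted p = 0.0168), a 5.61-fold difference, and DESeq2 gave 2.49 (adjusted p = 0.0383). In CPM of library totals the values were 3.18 and 5.85 with LARP7, against 2.61 and 1.64 with IgG, also without overlap, and the log2 fold change was 1.08 (edgeR adjusted p = 0.233). Without LARP7 replicate 2 the TMM value was 2.16 (adjusted p = 0.179), and over the 12 alternatives the adjusted p ranged from 0.00588 to 0.886.

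Foxo1 encodes a forkhead transcription factor that is held out of the nucleus when PI3K and AKT are active and that is needed for stem cell maintenance. The gene (ENSMUSG00000044167.6, chr3:52268337-52350109) had 18.36 and 36.37 counts with LARP7, against 24.01 and 14.82 with IgG. Its TMM-scaled CPM was 4.77 and 8.35 with LARP7, against 1.88 and 2.34 with IgG, without overlap. The log2 fold change of 1.62 ± 0.58 (SE) missed the threshold (edgeR adjusted p = 0.0632). Foxo1 passed with TMM factors from protein-coding genes (1.81, edgeR adjusted p = 0.0491), the lowest of its 12 alternatives, and the highest was 0.800, with library totals (0.24).

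Etv5 and Id4, the other nuclear factors, were not called with TMM scaling. Etv5 encodes an ETS transcription factor induced by GDNF (ENSMUSG00000013089.15, chr16:22381313-22439570). It had 10 and 7 counts with LARP7, against 27 and 7 with IgG, or 2.60 and 1.61 TMM-scaled CPM with LARP7, against 2.11 and 1.11 with IgG. The groups overlap, and the log2 fold change was 0.34 ± 0.77 (SE, edgeR adjusted p = 0.765). With library totals it was -1.13 (edgeR adjusted p = 0.290). Etv5 passed the filter on low counts only through its IgG libraries and so had to be lower in CPM of library totals. Id4 encodes a helix-loop-helix protein that has no DNA-binding region and holds other factors away from DNA (ENSMUSG00000021379.1, chr13:48261116-48266028). It had 4 and 16 counts with LARP7, against 42.19 and 10.03 with IgG. In TMM-scaled CPM these were 1.04 and 3.67 with LARP7, against 3.30 and 1.59 with IgG, and the libraries interleave. The log2 fold change of Id4 was -0.06 ± 0.77 (SE, edgeR adjusted p = 0.963) with TMM, against -1.47 (edgeR adjusted p = 0.117) when scaled to library totals. Over the 12 alternatives the adjusted p ranged from 0.148 to 0.989 for Etv5 and from 0.0634 to 0.980 for Id4.

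The receptors gave no call in edgeR. Kit encodes the receptor kinase of differentiating spermatogonia, which Leydig cells also carry (ENSMUSG00000005672.12, chr5:75574987-75656722). It had 17 and 14 counts with LARP7, against 44 and 20 with IgG, or 4.42 and 3.21 TMM-scaled CPM with LARP7, against 3.44 and 3.16 with IgG. These overlap, with a log2 fold change of 0.20 ± 0.57 (SE, edgeR adjusted p = 0.818). In CPM of library totals Kit stood at 2.46 and 2.15 with LARP7, against 6.29 and 4.53 with IgG, which do not overlap, and its log2 fold change was -1.24 (edgeR adjusted p = 0.151). The median of all genes on that scaling was -1.47, and over the 12 alternatives the adjusted p of Kit ranged from 0.124 to 0.974.

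Gfra1 and Ret, the GDNF receptor pair, had too few counts to pass the filter. Gfra1 (ENSMUSG00000025089.15, chr19:58235581-58455946) had 1 and 3 counts with LARP7, against 15 and 0 with IgG, so a single IgG library held all of its IgG counts. Summed over libraries this was 4 counts with LARP7 and 15 with IgG, a LARP7 over IgG ratio of 0.621 with TMM scaling (95% counting interval 0.150 to 1.95). With library totals the ratio was 0.227 (0.0548 to 0.711). Ret (ENSMUSG00000030110.13, chr6:118151748-118197744) had 1 and 3 counts with LARP7, against 2 and 6 with IgG. Its ratio of summed counts was 1.17 with TMM scaling (95% counting interval 0.257 to 4.35) and 0.425 with library totals (0.0936 to 1.59). The intervals cover counting error only and not the spread between libraries, which for Gfra1 in IgG ran between 0 and 15 counts. The ratio of Ret turned with the libraries used: on the log2 scale it was 0.22 with all 4 and TMM scaling, 0.72 without LARP7 replicate 1, -0.69 without LARP7 replicate 2, -0.96 without IgG replicate 1 and 1.64 without IgG replicate 2. In edgeR fits with no filter Gfra1 had a log2 fold change of -0.46 ± 1.93 (SE, adjusted p = 0.902) and Ret one of -0.21 ± 2.12 (adjusted p = 0.963). At this depth a difference in either receptor was not detectable over that spread.

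Uchl1 encodes a ubiquitin C-terminal hydrolase, also known as PGP9.5, used as a protein marker of spermatogonia and of neurons. The gene (ENSMUSG00000029223.12, chr5:66676121-66687234) had 11 and 17 counts with LARP7, against 44 and 36 with IgG. In TMM-scaled CPM it stood at 2.86 and 3.90 with LARP7, against 3.44 and 5.70 with IgG. The groups overlap, and the log2 fold change was -0.41 ± 0.58 (SE, edgeR adjusted p = 0.622). In CPM of library totals it was 1.59 and 2.61 with LARP7, against 6.29 and 8.16 with IgG, without overlap. The log2 fold change on that scaling, -1.77 ± 0.72 (SE), passed the threshold (edgeR adjusted p = 0.0300), beside a median of -1.67 for protein-coding genes. The adjusted p of Uchl1 over the 12 alternatives ranged from 0.0300 to 0.982.

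**Figure D2:**
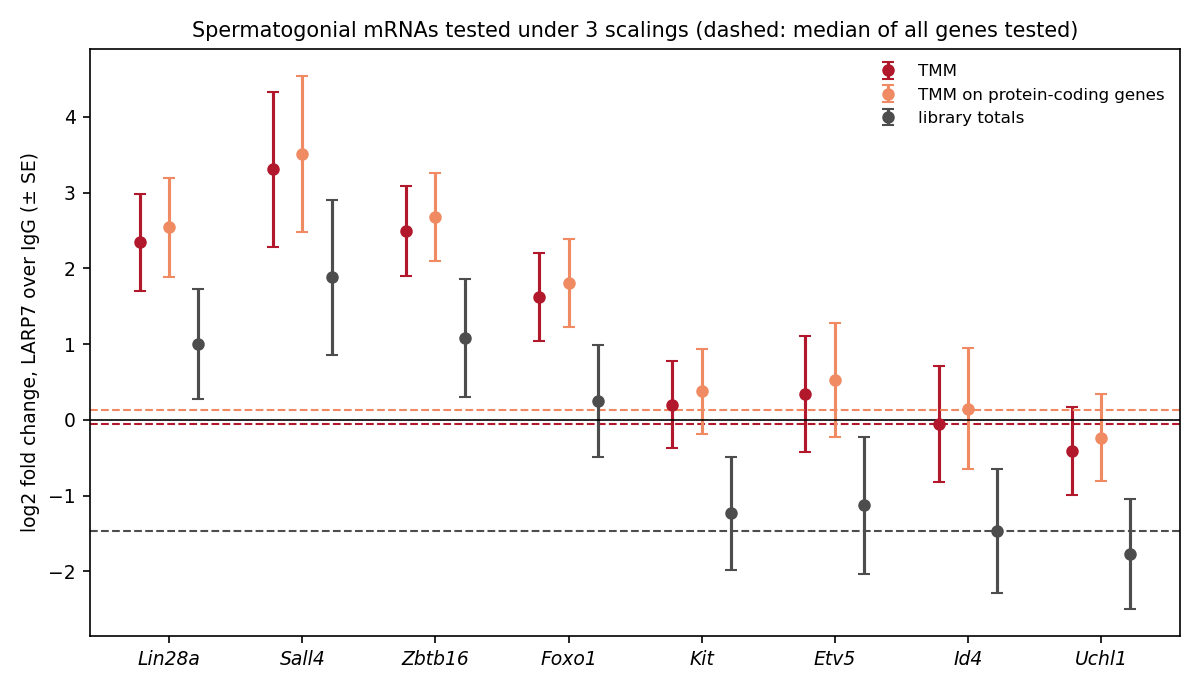
Log2 fold change, LARP7 over IgG (y axis), of the 8 tested mRNAs (x axis) under 3 scalings, with bars of 1 SE and dashed lines at the median of all 12234 genes for each scaling. Each mRNA is lowest with library totals; Lin28a, Sall4, Zbtb16 and Foxo1 stay above 0 under all 3, while Kit, Etv5 and Id4 change sign.

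**Figure D3:**
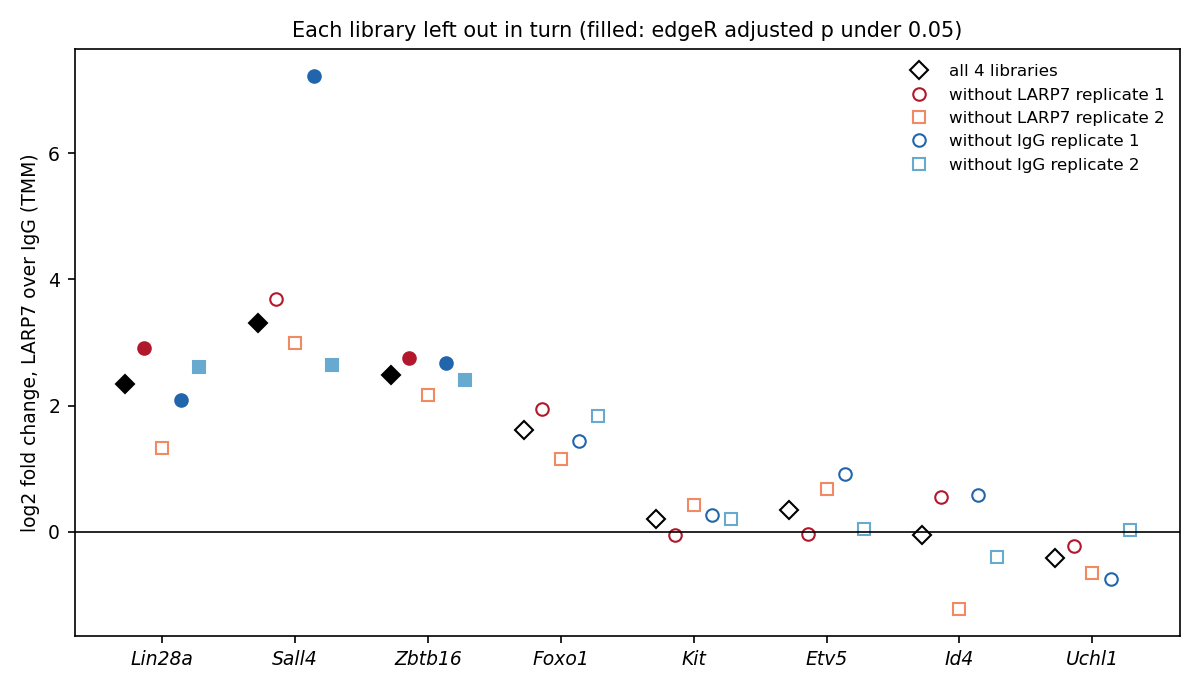
Log2 fold change, LARP7 over IgG, with TMM scaling (y axis) of the 8 tested mRNAs (x axis) from all 4 libraries (diamonds) and after leaving out each library in turn; filled markers have an edgeR adjusted p under 0.05. Lin28a, Sall4 and Zbtb16 stay above 0 in every case and none of them is filled without LARP7 replicate 2; the Sall4 point at 7.23 is set against a single IgG library with 0 counts.

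The calls depended on LARP7 replicate 2. Without it none of the 8 mRNAs was called by edgeR, with 1 higher at an unadjusted p of 0.05, and the whole table had 660 genes higher and 197 lower, against 1772 and 1185 with all libraries. Without LARP7 replicate 1, Lin28a (2.91, edgeR adjusted p = 0.0127) and Zbtb16 (2.75, adjusted p = 0.0306) were called. Without IgG replicate 1, Sall4 was set against an IgG library with 0 counts, where a fitted fold depends on the prior count and is no bound. Lin28a, Sall4, Zbtb16 and Foxo1 kept a positive log2 fold change without any one library, in ranges of 1.33 to 2.91 for Lin28a, 2.64 to 7.23 for Sall4, 2.16 to 2.75 for Zbtb16 and 1.15 to 1.95 for Foxo1.

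Levels can be compared between genes only per length, here as CPM of the library total divided by the effective length in kilobases (RPKM). In the LARP7 libraries Lin28a was highest, at 7.42 ± 3.59 (SD, n = 2), followed by Uchl1 at 5.09 ± 4.59 and Sall4 at 3.02 ± 1.51. Lin28a overlaps with Uchl1 and Uchl1 with Sall4, so neighbours in this order do not differ beyond their spread. The order also rests on effective lengths estimated from few counts. That of Uchl1 was 864 and 314 nt in the LARP7 libraries, with RPKM of 1.84 and 8.34. That of Lin28a was 503 and 896 nt with LARP7, against 2972 and 1413 nt with IgG. Kit (1.09), Zbtb16 (0.994), Id4 (0.951), Foxo1 (0.479) and Etv5 (0.445) came next, and Gfra1 (0.0784) and Ret (0.0654) were lowest. In the IgG libraries Uchl1 was highest, at 8.57 ± 0.442, and its 2 libraries lay above those of every other of the 10. Id4 followed at 2.60 ± 1.67, then Kit at 1.52 ± 0.0910 and Lin28a at 1.4996 ± 0.828, and these overlap. Sall4 stood at 0.231 ± 0.327 in IgG, from 1 library. The authors' TPM put every one of these mRNAs between 0 and 0.76 and is written to 2 decimals, so rounding is coarse at these levels.

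The gene models' lengths in the files, which RSEM weights by the isoforms it assigns reads to, also differed. For Lin28a, a gene with 4 transcripts, the length was 568 and 959 nt with LARP7, against 3035 and 1474 nt with IgG. For Kit, with 8 transcripts, it was 2849 and 1714 nt with LARP7, against 4033 and 3175 nt with IgG. In both genes the 2 LARP7 libraries were assigned to shorter transcripts than the 2 IgG libraries. Of the 5 mRNAs of the 10 with several isoforms and at least 5 counts in each library, 2 were shorter in both LARP7 libraries (40%) and 0 longer. Over the 7089 genes that met the same conditions, 16.7% were shorter and 20.5% longer, with a median log2 length ratio of 0.0016. Zbtb16 was assigned 5114 and 4371 nt with LARP7, against 5114 and 4475 nt with IgG. With 13 to 58 counts for Lin28a the assignment rests on few fragments, and which part of the transcript they came from is not in the files.

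**Figure D4:**
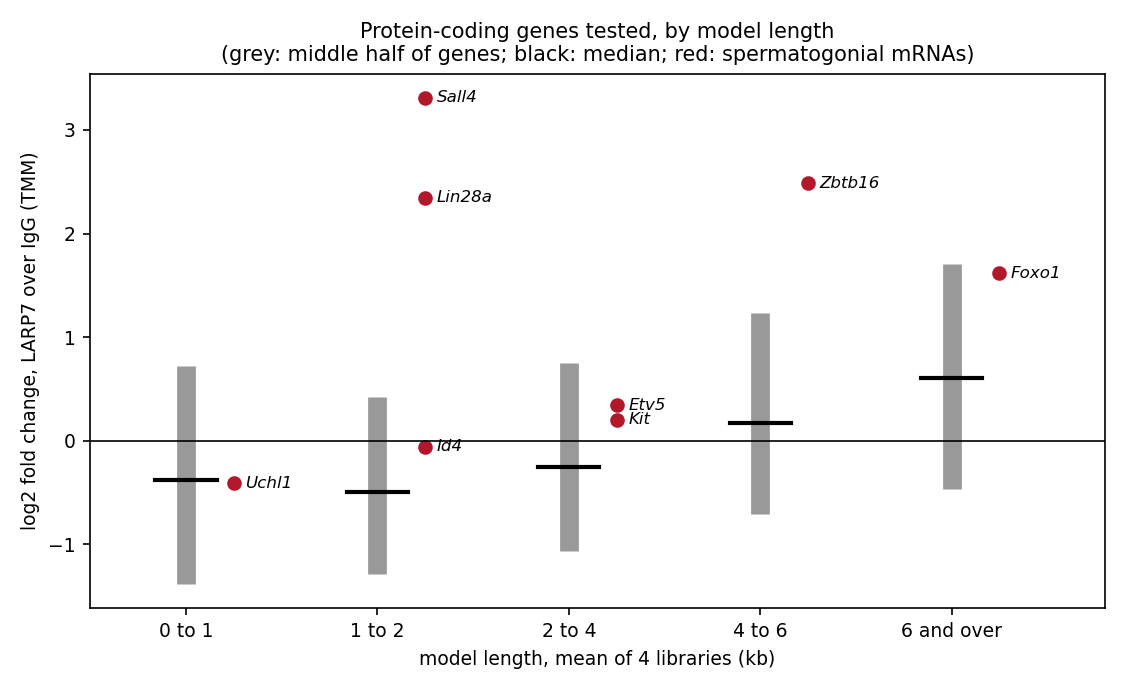
TMM log2 fold change, LARP7 over IgG (y axis), of protein-coding genes by class of mean model length in kilobases (x axis). Black lines are class medians, grey bars span the lower to the upper quartile, and red points are the 8 tested spermatogonial mRNAs. The medians run between -0.49 for 1 to 2 kb and 0.61 for 6 kb and over. Lin28a, Sall4 and Zbtb16 lie above the grey bars of their classes. The lengths of Lin28a and Sall4 rest on few counts and were shorter with LARP7 than with IgG.

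Length moved with the fold change over all protein-coding genes. Of 698 protein-coding genes of at least 6 kb, 26.8% were higher with LARP7 and 3.44% lower, with a median log2 fold change of 0.61. Of 2940 genes between 1 and 2 kb, the higher calls made up 6.73% and the lower ones 13.4%, and the median was -0.49. Foxo1 (8.67 kb) and Zbtb16 (4.77 kb) were the longest of the 8. By their mean over the 4 libraries, Lin28a (1.51 kb) and Sall4 (1.54 kb) belonged to the class with the smallest share of higher calls. For both genes the assigned lengths rest on few counts and differed between the antibodies. Sall4 was assigned 880 and 853 nt with LARP7, against 2537 and 1895 nt with IgG, where replicate 2 had 0 counts. The part of length in the values of the 8 mRNAs was not tested.

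Reads shared with another counted gene model were few. The posterior SD of the counts of the 10 mRNAs was at most 0.90 counts in any library, so few of their reads mapped to several models. Of the counted long non-coding RNAs that overlap these genes, those at Sall4 (Gm14261) and Id4 (A330033J07Rik) had 0 counts in all 4 libraries. Uchl1os, at Uchl1, had 1.41 and 0 counts with LARP7, against 0 and 1.17 with IgG. Gm32280, which overlaps Zbtb16, and Gm46650 and Gm10007, which overlap Gfra1, were not among the gene models. Reads from them could not be counted apart.

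Other genes of undifferentiated spermatogonia were mostly too rare to test: 7 of 30 listed passed the filter, and Nanos2, T and Eomes were at 0 in every library. With TMM scaling 1 of the 7 was higher and 0 lower in edgeR, beside 14.5% and 9.69% of all genes. The counts were the same at an unadjusted p of 0.05 and in DESeq2, and the median log2 fold change was -0.19. With library totals 3 of the 7 were lower (median -1.62), beside 47.1% of all genes. The gene called by TMM was Glis3, a Krüppel-like zinc finger factor, with 11.14 and 30.77 counts with LARP7, against 6.02 and 3.01 with IgG (3.36 ± 0.81 SE, edgeR adjusted p = 0.0166). Like Sall4 it passed the filter only through its LARP7 libraries and had to differ. Leaving out LARP7 replicate 2 (adjusted p = 0.410) or scaling to library totals (1.99, adjusted p = 0.0663) ended the call. Its adjusted p over the 12 alternatives ranged from 0.00408 to 0.586. Summed over the list, TMM-scaled CPM was 49.5 and 43.2 with LARP7, against 40.3 and 34.8 with IgG; in CPM of library totals the order turned, to 27.5 and 29.0 with LARP7, against 73.7 and 49.8 with IgG.

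Among genes of differentiating spermatogonia, 3 of 10 tested were higher and 1 was lower with TMM scaling, beside 14.5% and 9.69% of all genes. The median log2 fold change of the 10 was 0.82. Dnmt3a, a de novo DNA methyltransferase, had 248.23 and 359.58 counts with LARP7, against 157.24 and 98 with IgG. Its log2 fold change was 2.41 ± 0.46 (SE, edgeR adjusted p = 0.00863), and it stayed under the threshold without any one library (adjusted p 0.00479 to 0.0369), though not with library totals (1.02, adjusted p = 0.0820). Prdm9, the histone methyltransferase that places meiotic recombination sites (2.15, edgeR adjusted p = 0.0394), and Ccnd2, a cyclin of dividing spermatogonia (2.001, adjusted p = 0.0364), were also higher. Their calls were lost without LARP7 replicate 2 (adjusted p = 0.399 and 0.273) and without IgG replicate 1 (0.105 and 0.144), and that of Prdm9 also without LARP7 replicate 1 (0.0793). Dmrtb1, a factor of the step from mitosis to meiosis, was lower, with 46 and 57 counts with LARP7, against 389 and 242 with IgG (-1.45 ± 0.39 SE, edgeR adjusted p = 0.0249). Dmrtb1 missed the threshold without either LARP7 library (0.0611 and 0.0704) and without IgG replicate 2 (0.137). Over the 12 alternatives the adjusted p ranged from 5.5e-05 to 0.918 for Dnmt3a, 0.0227 to 0.440 for Prdm9, 0.00160 to 0.329 for Ccnd2 and 2.9e-06 to 0.137 for Dmrtb1. Scaling to library totals gave 2 of the 10 genes lower, beside 47.1% of all genes, no higher call and a median of -0.58.

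The signalling genes around the receptors gave few calls with TMM scaling and more lower ones with library totals. Over all genes, 14.5% were higher and 9.69% lower with TMM scaling, and 3.95% and 47.1% with library totals. Of 26 tested genes of GDNF and RET signalling, 0 were higher and 1 lower in edgeR with TMM scaling, with 3 and 4 at an unadjusted p of 0.05 and 0 and 0 in DESeq2. The one called was Mapk3, the kinase ERK1, with 15 and 10 counts with LARP7, against 172 and 52 with IgG (-1.82 ± 0.53 SE, edgeR adjusted p = 0.0318), a call lost without LARP7 replicate 2 (adjusted p = 0.183) and without IgG replicate 1 (0.134). Scaled to library totals, 14 of the 26 were lower (median -1.55), beside 47.1% of all genes. Gdnf itself, Gfra3 and Dok5 were at 0 in every library. Of 7 tested genes of KIT signalling, Ptpn11, the phosphatase SHP2, was higher (1.74 ± 0.44 SE, edgeR adjusted p = 0.0212) and 0 were lower, while 2 were higher and 0 lower both at an unadjusted p of 0.05 and in DESeq2. Its counts were 71 and 84 with LARP7, against 90 and 26 with IgG, and with library totals its log2 fold change was 0.28 (adjusted p = 0.688). Ptpn11 also missed the threshold without LARP7 replicate 2 (0.0641) and without IgG replicate 2 (0.101), and over the 12 alternatives the adjusted p ranged from 2.2e-06 to 0.183 for Mapk3 and from 0.00852 to 0.688 for Ptpn11. Of the 7, 4 were lower with library totals (median -1.69). Of 8 tested genes of retinoic acid signalling, the signal that starts spermatogonial differentiation, 0 were called in either direction by edgeR or DESeq2, with 0 higher and 1 lower at an unadjusted edgeR p of 0.05. The most counted of these were the retinaldehyde dehydrogenases Aldh1a1 (0.59, edgeR adjusted p = 0.294) and Aldh1a2 (-1.41, adjusted p = 0.0641). With library totals 2 of the 8 were lower (median -1.04).

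Lin28a acts in the let-7 pathway, whose other genes follow. LIN28 proteins bind let-7 precursors and recruit enzymes that add uridine to them, and let-7 in turn is known to repress Lin28a, Trim71 and Igf2bp1. Of 11 tested mRNAs of this pathway 3 were higher and 1 lower with TMM scaling, beside 14.5% and 9.69% of all genes. The median log2 fold change of the 11 was 0.77. Scaled to library totals, 2 rose and 5 fell, beside 3.95% and 47.1% of all genes.

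Trim71, an RNA-binding ubiquitin ligase, had 352.72 and 698.48 counts with LARP7, against 98.6 and 44 with IgG. Its log2 fold change was 4.09 ± 0.56 (SE, edgeR adjusted p = 0.00303). Igf2bp1, an mRNA-binding protein, had 147 and 216.04 counts with LARP7, against 66.46 and 21 with IgG (3.35 ± 0.44 SE, edgeR adjusted p = 0.00263). Both remained higher with library totals (2.70 for Trim71 and 1.91 for Igf2bp1, edgeR adjusted p = 1.1e-05 and 0.00101) and without any one library. Both were lost with limma on log2 TPM at pseudocounts of 0.1 and 1.

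Ago2, the Argonaute that carries mature microRNAs, was also higher (2.44 ± 0.71 SE, edgeR adjusted p = 0.0325), but not with library totals (1.08, adjusted p = 0.1604) and not without either LARP7 library (adjusted p = 0.113 and 0.215) or without IgG replicate 1 (0.0598). Ago2 had 9110.7 and 13858.2 counts with LARP7, against 5075.35 and 3977.73 with IgG. It held most of the counts of this list, which were 9869.64 and 14991.3 with LARP7. Which part of the Ago2 model these counts came from is not known here. Dis3l2, the nuclease that degrades uridylated let-7 precursors, had 3.93 and 6 counts with LARP7, against 66.02 and 44 with IgG (-2.29 ± 0.64 SE, edgeR adjusted p = 0.0269). It passed the filter on low counts only through its IgG libraries and so had to be lower in CPM of library totals. With TMM scaling its direction was not fixed by the filter. Its call was lost without either LARP7 library (adjusted p = 0.107 and 0.112) and without IgG replicate 2 (0.0558). Over the 12 alternatives the adjusted p ranged from 4.4e-13 to 0.324 for Trim71, 8.1e-09 to 0.772 for Igf2bp1, 7.5e-06 to 0.887 for Ago2 and 2.2e-05 to 0.112 for Dis3l2. Lin28b, the paralog of Lin28a, had a log2 fold change of 1.34 and was not called (edgeR adjusted p = 0.0812).

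The let-7 loci are shown because they are the RNAs on which LIN28 proteins act. Of 12 listed loci 6 were tested. With TMM scaling 4 of them were higher, beside 14.5% of all genes, and 0 lower, beside 9.69%. Also 0 were lower at an unadjusted edgeR p of 0.05 and in DESeq2. Mirlet7c-1 and Mirlet7g passed the filter only through their LARP7 libraries and had to differ, which leaves 2 of 4 higher among the others. The median of all 6 tested loci was 2.28 on the log2 scale by TMM and 0.93 by library totals. Library totals left 1 locus higher (Mirlet7c-2) and none lower, beside 3.95% and 47.1% of all genes. The loci called higher give these mature sequences (RefSeq, GRCm38.p6, 5′ to 3′), with the seed, bases 2 to 8, in capitals.
let-7c-5p: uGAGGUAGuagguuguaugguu
let-7g-5p: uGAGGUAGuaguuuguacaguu
let-7i-5p: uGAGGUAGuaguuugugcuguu
All share the seed GAGGUAG, as do the 11 let-7 loci for which a mature sequence was found. Both Mirlet7c-1 (chr16:77599672-77599693, plus strand) and Mirlet7c-2 (chr15:85706616-85706637, plus strand) encode let-7c-5p, so reads of the mature form cannot be told apart between them. Mirlet7g lies at chr9:106178846-106178867 on the plus strand and Mirlet7i at chr10:122985698-122985719 on the minus strand.

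Mirlet7c-2 had 33.9 and 54.05 counts with LARP7, against 9.17 and 10.92 with IgG. Its log2 fold change was 3.19 ± 0.61 (SE, edgeR adjusted p = 0.00863), and 1.82 with library totals (adjusted p = 0.0321). Mirlet7c-1 had 17.73 and 25.93 counts with LARP7, against 6.93 and 4 with IgG (3.15 ± 0.71 SE, edgeR adjusted p = 0.0140). Mirlet7g had 13 and 18 with LARP7, against 6 and 5 with IgG (2.60 ± 0.79 SE, edgeR adjusted p = 0.0355). The filter had fixed the order of Mirlet7c-1 and Mirlet7g in CPM of library totals, so their separation adds nothing to their calls. For all 3 loci both LARP7 libraries were above both IgG libraries in raw counts, an order not counted over all genes. Without LARP7 replicate 2 each missed the threshold (adjusted p = 0.0513, 0.150 and 0.344), and Mirlet7g also did without LARP7 replicate 1 (0.154) or IgG replicate 1 (0.0884). Over the 12 alternatives the adjusted p ranged from 5.0e-05 to 0.605 for Mirlet7c-2, 0.00440 to 0.629 for Mirlet7c-1 and 0.0179 to 0.962 for Mirlet7g. Mirlet7i, called at 1.74 (edgeR adjusted p = 0.0483), was closest to the threshold.

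Among 13 tested paralogs of the 10 genes, 1 was higher and 0 lower with TMM scaling in edgeR, with 3 and 2 at an unadjusted p of 0.05 and 1 and 0 in DESeq2. Their median was 0.40, and over all genes 14.5% were higher and 9.69% lower with TMM scaling. By library totals 4 of the 13 were lower (median -0.95), beside 47.1% of all genes. The paralog called was Foxo3, another forkhead factor under the control of AKT, with 140 and 333 counts with LARP7, against 146 and 54 with IgG. Its log2 fold change was 2.49 ± 0.49 (SE, edgeR adjusted p = 0.00962), called without any one library as well (adjusted p 0.00202 to 0.0200), and 1.10 with library totals (adjusted p = 0.0568). Its adjusted p over the 12 alternatives ranged from 4.6e-05 to 0.847.

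**Figure D5:**
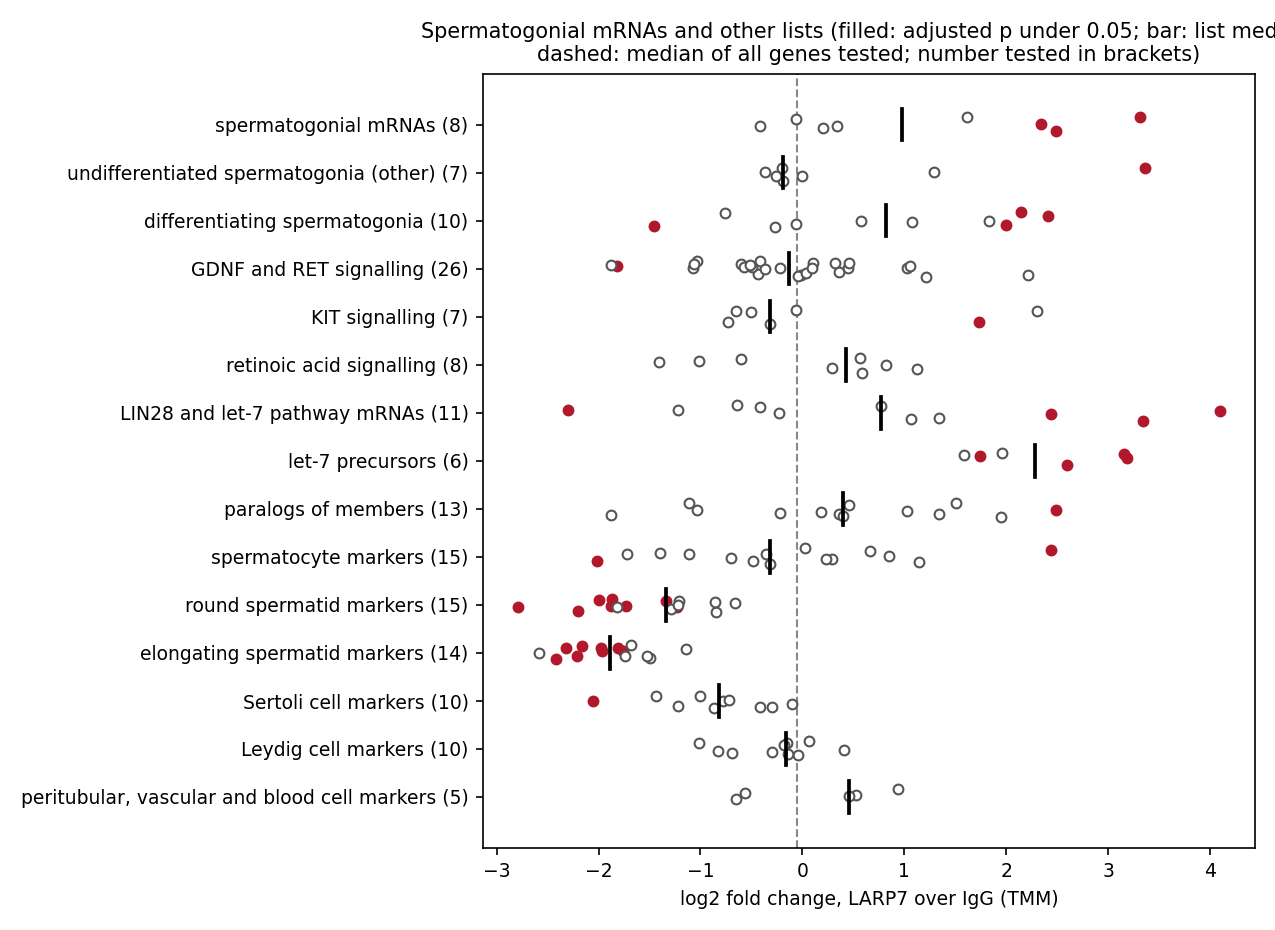
TMM log2 fold change, LARP7 over IgG (x axis), of each tested gene (points) in the 10 spermatogonial mRNAs and in 14 lists of related or other testis genes (rows), with a bar at each list's median; the dashed line is the median of all genes tested, brackets give the number tested, and filled points have an edgeR adjusted p under 0.05. All round and elongating spermatid markers lie below 0, let-7 precursors all lie above 0, and the spermatogonial mRNAs run between -0.41 and 3.31.

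Markers of other testis cells moved differently between the antibodies. The shares over all genes, for comparison with each list of markers, were 14.5% higher and 9.69% lower with TMM scaling. With library totals these shares were 3.95% and 47.1%. All 14 tested elongating spermatid markers had negative TMM log2 fold changes, with 8 called lower and a median of -1.89. Prm1, a protamine of the sperm nucleus, had 50 and 41 counts with LARP7, against 782 and 368 with IgG (-2.41 ± 0.44 SE, edgeR adjusted p = 0.00791). Summed over this list, TMM-scaled CPM was 725 and 455 with LARP7, against 1926 and 2001 with IgG. With library totals 14 of 14 were lower, of which 1 passed the filter only through its IgG libraries and so had to be lower in that CPM. Of 15 round spermatid markers tested, 2 passed the filter only through their IgG libraries and so had to be lower in CPM of library totals. Round spermatid markers were also negative in all 15 tested, 8 called lower, with a median of -1.34, and 15 of 15 lower with library totals. Tssk2, a testis serine kinase, led them (-2.79 ± 0.52 SE, edgeR adjusted p = 0.00794). Both calls held without any one library. On the same scaling the sum of the spermatogonial mRNAs was higher in both LARP7 libraries, and the part of the spermatid markers in the values of the 10 mRNAs was not tested.

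Among 15 tested spermatocyte markers 1 was higher (Hormad2, 2.44, edgeR adjusted p = 0.0140) and 1 lower (Ybx3, -2.01, adjusted p = 0.0166), both lost without LARP7 replicate 2 (0.0999 and 0.0699), with summed CPM of 255 and 206 with LARP7, against 341 and 300 with IgG. With library totals 9 of these 15 were lower, beside 47.1% of all genes. Of 10 Sertoli cell markers, Wt1 was lower (-2.05, edgeR adjusted p = 0.0448, though not without LARP7 replicate 1 at 0.0631, LARP7 replicate 2 at 0.276 or IgG replicate 2 at 0.147) and 0 were higher. At an unadjusted p of 0.05 0 were higher and 2 lower, DESeq2 called 0 in either direction, and with library totals 10 of 10 were lower. Of the 10 Sertoli cell markers, 3 passed the filter only through their IgG libraries, Wt1 among them. These 3 had to be lower in CPM of library totals. With TMM scaling their direction was not fixed by the filter. The list's summed CPM was 88.9 and 63.6 with LARP7, against 132 and 125 with IgG. Of 10 Leydig cell markers 0 were called by edgeR with TMM scaling or by DESeq2, with 0 higher and 1 lower at an unadjusted edgeR p of 0.05. With library totals 7 of the 10 were lower. The most counted, Cyp17a1 and Insl3, stood at -0.30 and -0.14 (edgeR adjusted p = 0.613 and 0.822). Of 5 peritubular, vascular and blood cell markers 0 were called by either tool and 0 reached an unadjusted edgeR p of 0.05, with Myh11 at 0.93 and Acta2 at -0.65 (edgeR adjusted p = 0.210 and 0.425). Their summed CPM was 31.4 and 19.4 with LARP7, against 27.1 and 20.8 with IgG, which overlap. In CPM of library totals it was 17.5 and 13.0 with LARP7, against 49.7 and 29.8 with IgG, which do not, and 2 of the 5 were lower.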

How the data were processed

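Testis RIP libraries (2 LARP7, 2 IgG) were made with a small RNA kit, per the labels' protocols. Reads were handled with cutadapt, Bowtie2 and RSEM against mm10, per the submitters' processing notes, which name no version or setting. Per the file headers, each deposited file gives an expected count (RSEM's estimate, which can be fractional), its posterior SD, the model's length and effective length, and the authors' TPM. Between 13.4% and 18.9% of expected counts were not whole, and all were rounded before testing. Gene coordinates come from RefSeq (GRCm38.p6, the assembly of mm10), which matched 35715 symbols (70.6%).

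The test was edgeR 4.0.16 (R 4.3.3): filterByExpr, TMM, robust quasi-likelihood F test, two-sided, antibody as the term, Benjamini-Hochberg over 12234 genes, threshold 0.05. SE is the unshrunk log2 fold change over the square root of F. CPM uses the scaled library sizes named; errors are SDs of 2 libraries. A value of 3 counts corresponded to 0.234 to 0.780 TMM-scaled CPM. Alternatives were library totals, TMM on protein-coding genes, no filter, a filter of 10 summed counts, a replicate block, DESeq2 1.42.0, limma 3.58.1 on log2(TPM + 0.1) and log2(TPM + 1), and leaving out each library. The code was tested on simulated data.

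The 10 genes and the 14 lists (246 symbols, 244 found) were chosen with earlier results of these data known. All 10 genes are named; from each list, up to 3 called genes per direction with the largest change and at least 20 counts, or, with none called, the 2 most counted. Lin28b and Mirlet7i are named outside this rule and were chosen after their values were seen, as were the comparisons of model length. No test of a list was made.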

Additional observations from a re-analysis of the deposited data

How the results depend on the processing

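The fits with no filter, with a filter of 10 summed counts and with DESeq2 held all 10 mRNAs. The count of spermatogonial mRNAs called higher (3 of 8 with TMM) was 3 of 8 with the replicate block and 4 of 8 with TMM on protein-coding genes. The count was 3 of 10 with no filter and with a filter of 10 summed counts. It was 0 with library totals, 1 with DESeq2 and 0 with limma on log2(TPM + 0.1) and on log2(TPM + 1), where 1 and 0 had an unadjusted p under 0.05; leaving out each library gave 0 to 3. The count called lower was 1 with library totals and 0 otherwise. Their median (0.98) was 0.98 with the replicate block and 1.16 with TMM on protein-coding genes. It was -0.44 with library totals, -0.28 with limma on log2(TPM + 0.1) and -0.038 on log2(TPM + 1), and 0.20 to 1.17 without each library. It was 0.19 with no filter, 0.22 with the filter of 10 summed counts and 0.26 with DESeq2, fits that add the rarest of the 10 mRNAs. The medians without LARP7 replicate 1 (0.55), LARP7 replicate 2 (0.67) and IgG replicate 2 (0.20) also cover a changed set, of 9 mRNAs. Numbers shared by LARP7 and IgG libraries do not pair them in the labels; same-numbered libraries deviated together with a correlation of 0.20 over 12234 genes, and the block gave 2088 genes higher and 1405 lower, against 1772 and 1185. All genes gave 1978 higher and 1341 lower with no filter, 1738 and 1161 with the filter of 10 summed counts, and 483 and 5759 with library totals. They gave 1433 and 653 with DESeq2 (26161 genes fitted), 93 and 6369 with limma on log2(TPM + 0.1), and 0 and 0 on log2(TPM + 1). On log2(TPM + 1), 89 and 5689 had an unadjusted limma p under 0.05.

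Signs reversed as follows. With library totals, Kit was at -1.24, Etv5 -1.13, Aldh1a1 -0.87 and Myh11 -0.57. With TMM on protein-coding genes Id4 was at 0.15 and Insl3 at 0.032. Leaving out each library gave -0.056 to 0.42 for Kit and -0.035 to 0.91 for Etv5 (negative without LARP7 replicate 1), -1.23 to 0.57 for Id4 (positive without LARP7 replicate 1 or IgG replicate 1), and -0.75 to 0.031 for Uchl1 and -0.43 to 0.25 for Insl3 (positive without IgG replicate 2). The log2 ratio of summed counts of Ret (0.22) was -1.23 with library totals and -0.96 to 1.64 without each library. With limma on log2(TPM + 0.1) and log2(TPM + 1), in that order, Foxo1 was at -0.12 and -0.014, Kit at -0.70 and -0.11, Etv5 at -0.45 and -0.062, Dnmt3a at -0.14 and -0.027, Prdm9 at -0.36 and -0.054, Ccnd2 at -0.70 and -0.12, Ptpn11 at -0.41 and -0.082, Aldh1a1 at -1.76 and -0.80, Ago2 at -0.18 and -0.12, Foxo3 at -0.25 and -0.046, Hormad2 at -0.69 and -0.15, and Myh11 at -0.66 and -0.12. Of the genes reversed with limma, Kit, Etv5, Aldh1a1 and Myh11 were also negative with library totals. The others stayed positive there, such as Foxo3 at 1.10 and Foxo1 at 0.24. The cause of the reversals was not tested. Depth limits most of the 10 mRNAs, which had 4 to 58 counts in a LARP7 library, apart from Gfra1 and Ret with 1 and 3.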
